A study of Mus musculus with 9 samples.

Results

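The 9 genes described here control the making and upkeep of skeletal muscle, and they were chosen by name: Myog, Myod1, Myf5 and Myf6, which encode the myogenic regulatory factors; Mef2a, Mef2c and Mef2d, which encode their MEF2 partners; and Pax7 and Cdh15, which mark satellite cells. Every probe set that the array annotation listed to these genes was taken, giving 22 of the 45037 probe sets tested, and the 9 genes were read among the 18193 genes represented by 1 probe set each.

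Myogenic regulatory factors are basic helix-loop-helix proteins that pair with E proteins, bind E-box sequences and switch on muscle genes. Myf5 and Myod1 act early in committing cells to the muscle lineage, Myog drives terminal differentiation, and Myf6 (MRF4) is the member that mature fibres express most. MEF2 proteins are MADS-box factors that act on many of the same muscle promoters. Satellite cells are the resident stem cells of muscle, lying beneath the basal lamina of a fibre, where Pax7 marks them and Cdh15 (M-cadherin) joins them to the fibre. In adult muscle Myog is known to be induced when a fibre loses its nerve.

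CD-1 mice, which are outbred, were studied as young adults, and the muscle taken was the gastrocnemius of the hind leg. The sham group had sham surgery and a placebo pellet. The castration group was castrated and given a placebo pellet. The testosterone group was castrated and given a pellet of 2.5 mg testosterone made to release over 60 days, so the last 2 groups share the castration and the first 2 share the placebo. Muscles were taken on day 14 from animals that had not fasted; the time of day is not in the labels used here. Each group had 3 arrays, each hybridised with the pooled RNA of 3 animals, which used 27 mice out of 36, and a p-value therefore reflects the spread between pools. Values are log2 signals on the deposited scale, where a difference of 1 is a doubling of signal, and adjusted p-values are from limma with Benjamini-Hochberg adjustment over all genes, called when under 0.05.

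The arrays ranged in median from 3.15 to 3.26 and 7 of them had mean correlations of 0.989 to 0.991 with the other arrays. The second sham array (0.972) and the second testosterone array (0.981) stood apart. The differences of the 9 genes are therefore also given without this pair, as are some of the list values. Muscle fibre markers, actin and fast myosin among them, averaged 13.85 to 13.88 on every array, so the defining markers of the labelled tissue were present throughout. Adipocyte markers averaged 6.53 on the second sham array and 6.82 on the second testosterone array, against 4.75 to 6.07 on the other 7. Macrophage and lymphocyte markers averaged 5.04 and 5.92 on the same pair, against 4.18 to 4.37. The pair also held the 2 lowest values of 4 of the 9 genes (Myod1, Myf6, Mef2a and Mef2c) and of 8 of the 22 probe sets, while this was so for 11.9% of all genes and 9.19% of all probe sets. Whether the marker levels bear on those values was not tested. In whole muscle, fewer cells of a type and less RNA per cell cannot be told apart.

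Myog, the driver of terminal differentiation, had the largest difference of the 9 genes in castration against sham and in testosterone against castration, but no difference of the 9 genes passed the adjusted threshold with all arrays. Its signal was 4.38, 4.30 and 4.35 on the sham arrays, 5.93, 5.46 and 5.28 on the castration arrays, and 4.49, 4.97 and 4.40 on the testosterone arrays. Every castration array was above every other array, and the testosterone arrays were all above the sham arrays, the lowest of them by a small step. The group means were 4.34 ± 0.039, 5.55 ± 0.34 and 4.62 ± 0.31 (SD, n = 3).

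The castration mean was 1.21 above sham on the log2 scale, a 2.31-fold difference with a 95% interval of 0.77 to 1.64. Its limma adjusted p was 0.271, so Myog was not called. Testosterone-treated muscle was 0.93 lower than castrated muscle (1.91-fold; interval -1.37 to -0.50; limma adjusted p = 0.392). It was 0.28 above sham, with an interval of -0.16 to 0.71 that spans 0 (limma adjusted p = 0.780), and by 0.08 without the second sham and second testosterone arrays. The first and second of these comparisons share the castration arrays.

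Set against the average of the sham and testosterone means, castration gave a Myog difference of 1.07 (2.10-fold; interval 0.69 to 1.45; limma adjusted p = 0.116). Without the second sham and second testosterone arrays that difference was 1.15 and passed the 5% threshold (limma adjusted p = 0.0366), and with array weights its adjusted p was 0.00669. In the same reduced set Myog was 1.19 above sham in castrated muscle and -1.11 in testosterone against castration (adjusted p = 0.112 and 0.110). Across all alternatives the castration against sham difference ran from 1.02 to 1.35, and its sign was the same in each. That difference passed the threshold in 1 of 22 alternatives, and castration against the mean of the others in 2 of 21. With 1 array left out, their limma adjusted p ran from 0.121 to 0.999 and from 0.0677 to 0.496. Array weights were 4.61, 0.164 and 0.644 for the sham arrays in order, so the weighted sham mean leaned mostly on 1 array.

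**Figure D1:**
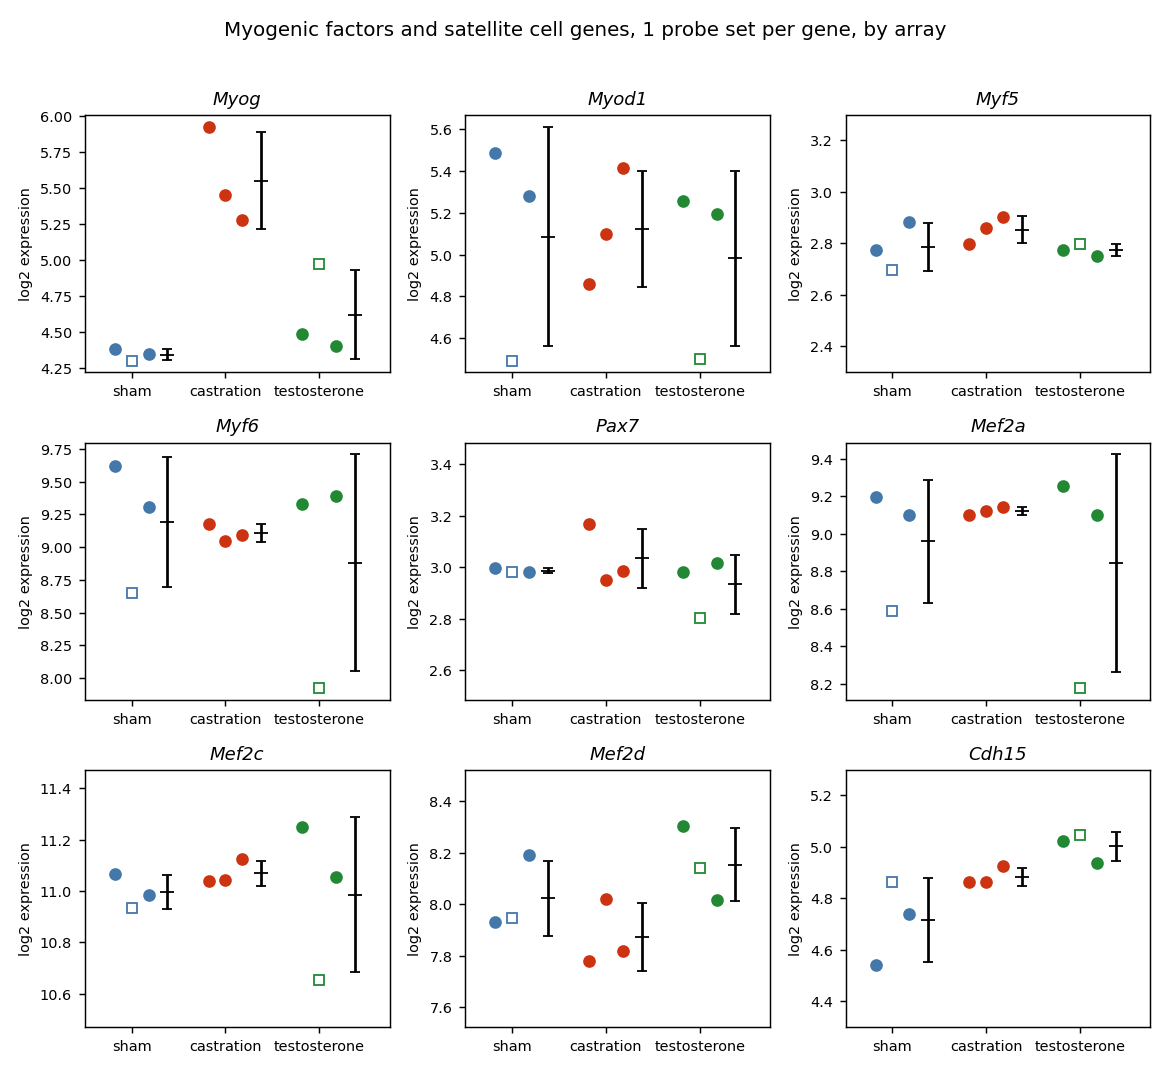
Log2 signal of the 9 genes on each array, by group (sham, castration, testosterone), with 1 probe set per gene; points are arrays, open squares are the second sham and second testosterone arrays, and the bar is the mean ± SD of 3 arrays. Myog shows castration arrays from 5.28 to 5.93, all above the other 6, while Myf6 and Mef2a dip on the open squares.

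The promoter of Myog is shown because this gene carries the difference above, and because its control elements are well known: E-boxes that myogenic factors can bind and an A/T-rich MEF2 site. The 250 bases before its transcription start, from RefSeq on GRCm38.p6 (chr1:134289754-134290003, plus strand, 5′ to 3′), read as follows, with 2 E-boxes and an 8-base MEF2 core in capitals.
Myog promoter: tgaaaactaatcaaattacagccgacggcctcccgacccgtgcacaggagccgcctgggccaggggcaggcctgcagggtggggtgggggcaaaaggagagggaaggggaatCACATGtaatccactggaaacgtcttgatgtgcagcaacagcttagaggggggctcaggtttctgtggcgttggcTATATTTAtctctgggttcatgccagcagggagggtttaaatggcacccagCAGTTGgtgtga
The E-boxes CACATG and CAGTTG lie 138 to 133 and 12 to 7 bases before the start, and TATATTTA lies 63 to 56 bases before it. E-boxes (CANNTG, on both strands) were in 66.2% of the 32851 promoters of this length and TATATTTA in 1.12%, a motif searched after the sequence had been seen. The stricter MEF2 consensus, searched by name, matched 2.92% of promoters and had no match in the Myog window. The androgen receptor half-site TGTTCT was in 16.1% of promoters and has no match in this window of Myog, which says only that these letters are absent there. RefSeq entries were matched for 7 of the 9 genes. Cdh15 has 3 E-boxes in its window, while the windows of Myf5, Pax7, Mef2a and Mef2d have none. The 3 windows of Mef2c hold 2, 0 and 1 E-boxes, and the last of them holds 1 androgen receptor half-site, the only match to that motif among the members' windows.

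The other myogenic regulatory factors gave no difference past the threshold in any comparison. Myod1 read 5.49, 4.49 and 5.28 in sham, 4.86, 5.10 and 5.41 in castration, and 5.26, 4.50 and 5.19 in testosterone. The groups overlapped throughout, with the lowest values on the second sham and second testosterone arrays. Castration differed from sham by 0.04 (interval -0.63 to 0.71) and testosterone from castration by -0.14 (-0.81 to 0.53). Without that pair the castration against sham value of Myod1 was -0.26 and that of testosterone against castration 0.10, so both directions turned.

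Myf6 signal was 9.62, 8.65 and 9.31 in sham, 9.18, 9.05 and 9.10 in castration, and 9.33, 7.92 and 9.39 in testosterone. The castration arrays lay close together, and the second arrays of the other groups lay well below the rest. Castration against sham was -0.09 (interval -0.97 to 0.79). Without the pair it was -0.36 (limma adjusted p = 0.627), and testosterone against castration was 0.25 (limma adjusted p = 0.860) where it had been -0.23 with all arrays. In that reduced set each castration array was below all 4 others, a separation that 5.99% of genes showed there. Leaving out the second testosterone array alone turned the Myf6 value of testosterone against castration to 0.25, and leaving out the first sham array alone turned that of castration against sham to 0.13.

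Myf5, which neighbours Myf6 on chromosome 10, read between 2.70 and 2.90 on every array, below the median signal of each array. The group differences were 0.07 for castration against sham and -0.08 for testosterone against castration, or 0.02 and -0.09 without the pair.

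Among the satellite cell genes, Pax7 read from 2.80 to 3.17 with its brighter probe set, again below the array median on all 9 arrays. Castration against sham was 0.05 and testosterone against castration -0.10 for Pax7, or 0.04 and -0.03 without the pair. Cdh15 was 4.54, 4.86 and 4.74 in sham, 4.86, 4.86 and 4.92 in castration, and 5.02, 5.05 and 4.94 in testosterone. The testosterone arrays were all above the other 6, and the castration arrays met the highest sham array. Testosterone exceeded sham by 0.29 (interval 0.07 to 0.50; limma adjusted p = 0.780), castration exceeded sham by 0.17, and testosterone exceeded castration by 0.12. Without the pair of arrays the testosterone against sham difference of Cdh15 was 0.34 (limma adjusted p = 0.998), with 0.24 for castration against sham and 0.10 for testosterone against castration.

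The MEF2 genes lay well above the array median with their brightest probe sets. Mef2a read 9.20, 8.59 and 9.10 in sham, 9.10, 9.12 and 9.14 in castration, and 9.25, 8.18 and 9.10 in testosterone. Apart from the second arrays of sham and testosterone, its values lay within a narrow band. Mef2a differed by 0.16 for castration against sham and by -0.28 for testosterone against castration, and by -0.03 and 0.05 without that pair. Mef2c, which fibres and their precursors express, was 11.07, 10.93 and 10.99 in sham, 11.04, 11.04 and 11.13 in castration, and 11.25, 10.65 and 11.05 in testosterone. Its groups overlapped, with differences of 0.07 for castration against sham and -0.08 for testosterone against castration. Without the pair the Mef2c values were 0.04 and 0.08, so the second turned direction.

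Mef2d read 7.93, 7.95 and 8.19 in sham, 7.78, 8.02 and 7.82 in castration, and 8.30, 8.14 and 8.02 in testosterone. The lowest testosterone array met the highest castration array. Testosterone against castration was 0.28 (interval 0.02 to 0.54; limma adjusted p = 1.00). Only 1 of its 3 probe sets had that direction: the others gave -0.10 and -0.08. Castration against sham was -0.15, and without the pair Mef2d gave 0.29 in testosterone against castration and -0.19 in castration against sham.

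**Figure D2:**
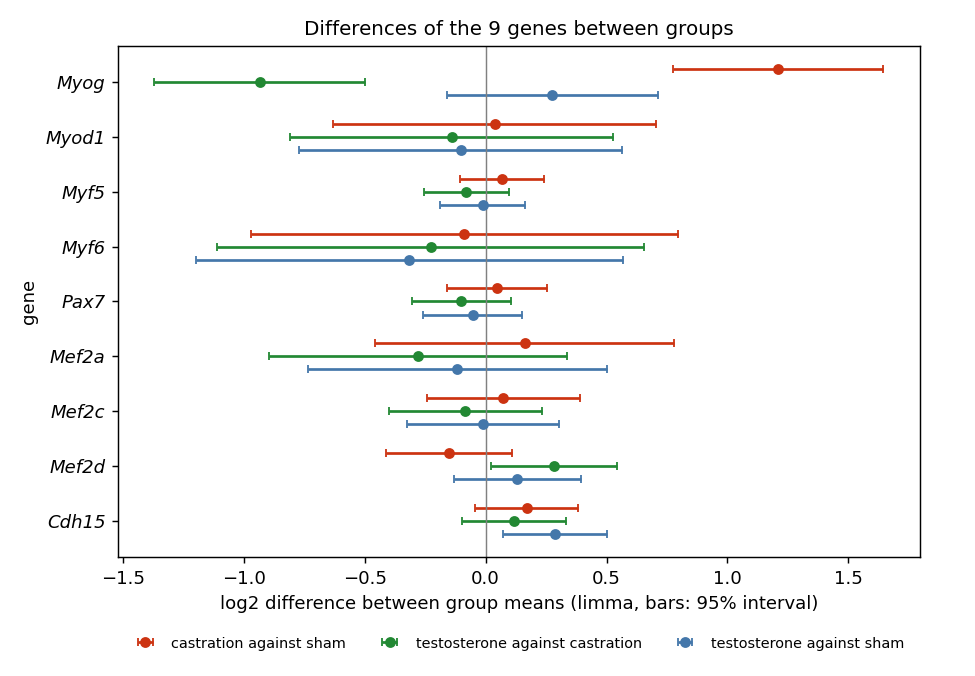
Log2 difference of each of the 9 genes in castration against sham, testosterone against castration and testosterone against sham, with limma 95% intervals; points are differences of group means over 3 arrays each. The Myog intervals lie clear of 0 in the first and second comparisons (1.21 and -0.93), and of the others only Mef2d in testosterone against castration and Cdh15 in testosterone against sham have intervals that do not span 0.

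Set beside all genes, 1 of the 9 (Myog) had an unadjusted limma p under 0.05 in castration against sham, where 4.72% of all genes did. In testosterone against castration there were 2 (Myog and Mef2d) against 3.48%, and in testosterone against sham 1 (Cdh15) against 4.35%. In castration against the mean of the others there was 1 (Myog) against 4.02%. Groups that did not overlap were seen for Myog in castration against sham (8.89% of all genes), for Myog and Cdh15 in testosterone against castration (9.01%) and in testosterone against sham (6.47%), and for Myog in castration against the mean (3.06%). Without the second sham and second testosterone arrays, an unadjusted p under 0.05 was seen for 3 of the 9 in castration against sham (Myog, Myf6 and Cdh15; 5.38% of all genes), 2 in testosterone against castration (Myog and Myf6; 5.78%), 1 in testosterone against sham (Cdh15; 3.13%) and 2 in castration against the mean (Myog and Myf6; 6.25%). After adjustment over all genes the pairwise comparisons called 0% of genes, and castration against the mean called 10 genes (0.055%), none of them among the 9. The median difference of the 9 genes was 0.07 in castration against sham, beside 0.01 over all genes. Without the pair it was 0.02, with 5 of the 9 above 0 where 7 had been.

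The other probe sets of these genes were read separately. Mef2a has 6, Mef2c 5, Mef2d 3, Myod1 and Pax7 2 each, and Myog, Myf5, Myf6 and Cdh15 1 each. In castration against sham all 6 Mef2a and all 5 Mef2c probe sets were above 0, from 0.01 to 0.75 and from 0.03 to 0.22. The 0.75 belonged to a probe set that read 3.71 on the second sham array and 5.63 to 6.26 on the other 8. Without the second sham and second testosterone arrays the brightest Mef2a probe set gave -0.03 and that of Mef2c 0.04. The shared sign thus rested in part on the low second sham array. For testosterone against castration the Mef2a probe sets divided, 3 of 6 being below 0. Over the 4 comparisons 5 of 88 tests of member probe sets had an unadjusted limma p under 0.05: Myog in 3, Mef2d in 1 and Cdh15 in 1. Of all probe sets 4.19% had such a p in castration against sham, 3.02% in testosterone against castration, 4.75% in testosterone against sham and 3.21% in castration against the mean. After adjustment over all probe sets 0.0311% were called in castration against the mean and 0% in the pairwise comparisons, none of them a member.

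**Figure D3:**
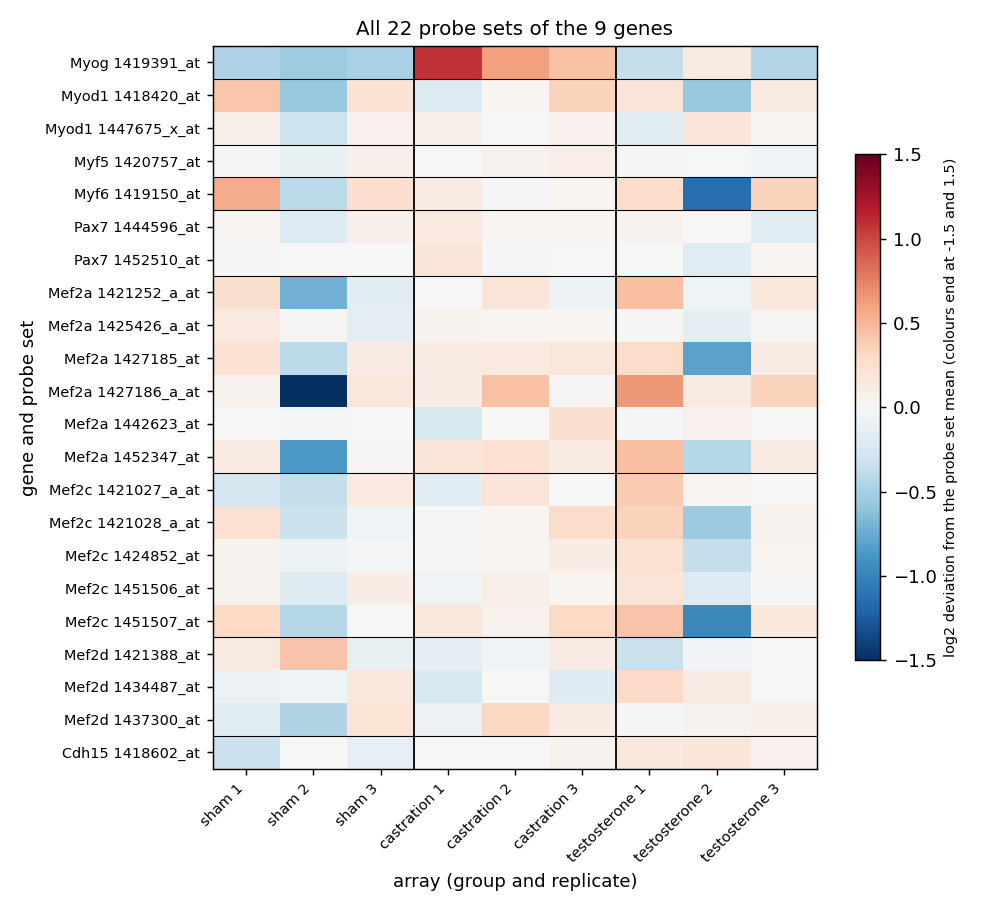
Log2 deviation of each of the 22 probe sets from its own mean over the 9 arrays, with arrays in columns by group and colour for the deviation. The Myog row is high on the castration arrays, and the second sham array holds the lowest value of 11 of the 22 rows.

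Genes of the surrounding network were read from lists of known function, and with all arrays no list gene passed adjustment in any comparison. Of the 36 partners and repressors of myogenic factors, 34 were measured, and 1 had an unadjusted limma p under 0.05 in castration against the mean: Bhlhe40, a helix-loop-helix repressor, at 0.28 (limma adjusted p = 0.999), where 4.02% of all genes had such a p. Id1, an inhibitor that sequesters E proteins, differed by 0.25 in castration against sham and -0.14 in testosterone against castration. Id3 gave 0.40 and -0.10, Id2 gave 0.03 and 0.07, and the E protein gene Tcf12 gave 0.51 and -0.01. Without the second sham and second testosterone arrays, castration against sham was 0.07 for Id1, 0.07 for Id3 and 0.19 for Tcf12, so these values rested largely on that pair, and Id3 was 0.0055 in testosterone against castration. Pax3, the Pax7 relative, read below the array median on every array.

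Among 20 genes for class II deacetylases and MEF2 control, 2 had a limma p under 0.05 in castration against the mean, beside 4.02% of all genes. Ppp3ca, the catalytic subunit of calcineurin, was 8.73, 8.66 and 8.81 in sham, 9.02, 9.10 and 9.10 in castration, and 8.89, 8.88 and 8.83 in testosterone. Its castration arrays were above all others, and its difference in castration against the mean was 0.27 (limma adjusted p = 0.421). Prkd1, a kinase of class II deacetylases, was lower by 0.33 (limma adjusted p = 0.951). Hdac4, a repressor of MEF2 and of Dach2, differed by 0.28 in castration against sham and -0.14 in testosterone against castration. Dach2, which represses Myog, read from 2.92 to 3.25, above the array median on only 1 of the 9 arrays. Hdac5 differed by 0.23 in testosterone against castration. Without the pair Hdac4 turned to -0.04 in castration against sham, and Hdac5 was 0.03 in testosterone against castration.

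Of the genes known to be induced with Myog on denervation, 19 of 20 were measured. In castration against the mean 4 had a limma p under 0.05, 3 higher and 1 lower, beside 4.02% of all genes. The lower one was the ubiquitin ligase gene Fbxo32, at -0.43 (limma adjusted p = 0.778). Its castration arrays overlapped those of sham, while testosterone was 0.56 above sham with no overlap (limma adjusted p = 0.780). Actc1, cardiac actin, read 7.37, 8.59 and 8.74 in sham, 10.73, 10.02 and 10.30 in castration, and 7.90, 6.98 and 7.17 in testosterone. Its castration arrays stood far above the rest, at 2.56 above the mean of the other groups (5.89-fold; limma adjusted p = 0.0561, and 0.0444 without the second sham and second testosterone arrays). Chrna1, the acetylcholine receptor alpha subunit and a target of Myog, was 6.36, 5.98 and 6.20 in sham, 6.70, 6.65 and 6.36 in castration, and 6.04, 6.29 and 6.35 in testosterone. The third castration array met the highest sham array, and the difference was 0.37 (limma adjusted p = 0.951). Gadd45a, a stress gene, was 0.38 above the mean of the others with no overlap (limma adjusted p = 0.302).

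Musk, the receptor kinase of the neuromuscular junction, differed by -0.01 in castration against sham, Ncam1 by 0.03 and the embryonic myosin gene Myh3 by -0.12. The ubiquitin ligase gene Fbxo32 was -0.16 in castration against sham and 0.71 in testosterone against castration (limma adjusted p = 0.457). Trim63, the other muscle ubiquitin ligase gene of this list, gave -0.11 and 0.29. The cell cycle inhibitor gene Cdkn1a, which is in this list and in that of the cell cycle, gave 0.48 and -0.13, or 0.66 and -0.23 without the pair, in the directions of Chrna1 and Gadd45a.

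**Figure D4:**
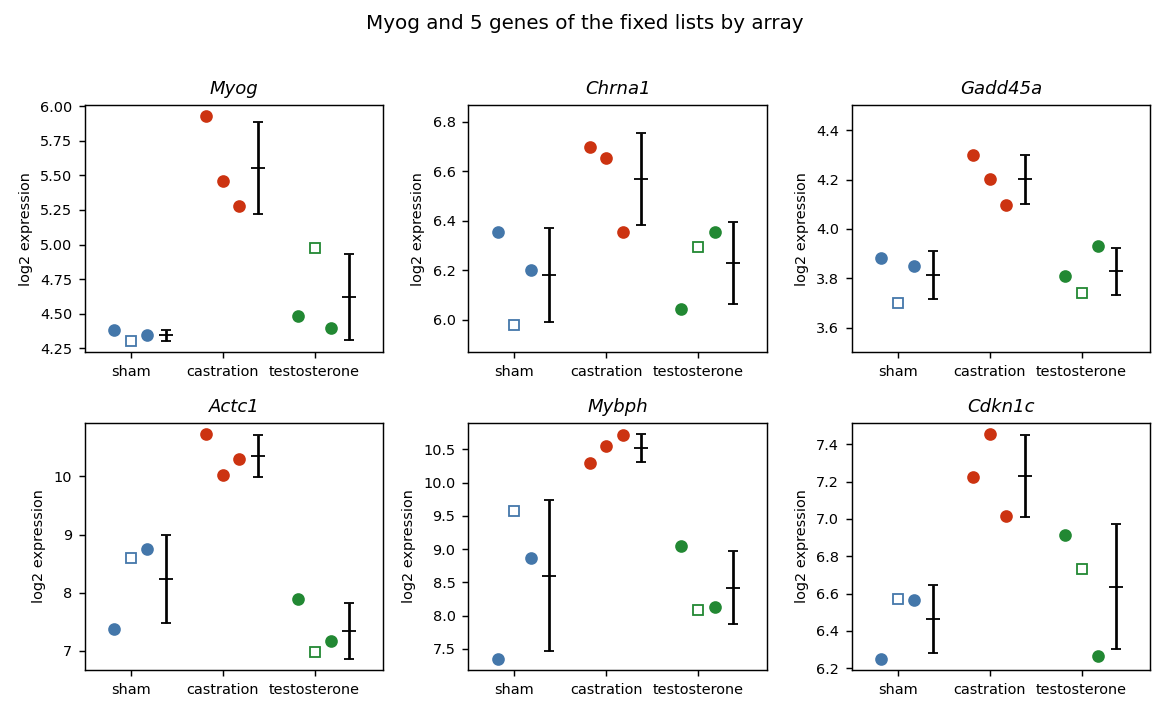
Log2 signal on each array of Myog, Chrna1, Gadd45a, Actc1, Mybph and Cdkn1c, by group, with points for arrays and a bar for the mean ± SD of 3 arrays; each panel has its own axis. In Actc1 the castration arrays lie from 10.02 to 10.73, and in Chrna1 the groups meet at 6.36.

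Of 28 genes for satellite cell quiescence and Notch signalling, 5 had a limma p under 0.05 in castration against the mean, beside 4.02% of all genes. Cdkn1c, a cell cycle inhibitor, was 0.68 higher with no overlap (limma adjusted p = 0.435). Spry1 was 0.47 and Foxo3 0.27 higher, and Itga7, an integrin of fibres and satellite cells, was 0.27 lower. Without the second sham and second testosterone arrays these values were 0.73, 0.33, 0.27 and -0.21 in the same order. Of 23 fusion and differentiation genes 21 were measured, and Mybph, a thick filament protein gene, was 2.01 higher in castration than the mean of the others (limma adjusted p = 0.347), with Jam3 at 0.25. Jam3 read 3.26 to 3.72, not far above the array medians, and only 1 of its 2 probe sets had that direction. Of 18 cell cycle genes 17 were measured and 1, Ccnd1, had such a p, at 0.50, while Mki67 stayed below the array median on all arrays. In castration against the mean, 23 of the 34 partners and repressors were above 0, 13 of the 20 deacetylase and MEF2 control genes, 10 of the 19 denervation genes, 19 of the 28 quiescence genes, 16 of the 21 fusion genes and 9 of the 17 cell cycle genes, beside 51.7% of all genes. The list medians ran from 0.01 for the cell cycle and denervation genes to 0.07 for the quiescence and the deacetylase and MEF2 control genes, beside 0.0041 over all genes. Without the pair the counts above 0 were 18 of 34, 13 of 20, 7 of 19, 14 of 28, 12 of 21 and 11 of 17 in the same order, beside 51.6% of all genes. The list medians then ran from -0.01 for the denervation genes to 0.05 for the cell cycle genes.

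Other cell types also differed between the groups, and their part in the Myog difference was not tested. The 12 satellite cell markers averaged 3.97 to 4.15 over the 9 arrays, and 6 of them were higher in castration against the mean. Of 8 adipocyte markers 6 were measured and all 6 were lower in castration, averaging 4.75 to 4.87, against 5.15 to 6.53 in sham and 4.89 to 6.82 in testosterone. Fibroblast markers averaged 7.01 to 7.83 in sham, 7.73 to 8.01 in castration and 7.14 to 7.53 in testosterone, and 6 of 8 had a limma p under 0.05 in castration against the mean (5 higher and 1 lower), beside 4.02% of all genes. The 7.01 was the second sham array, and the other sham arrays read 7.83 and 7.79. Their median in castration against sham was 0.34, and 0.03 without the second sham and second testosterone arrays. In testosterone against sham it was then -0.33, with 1 of 8 higher. All 8 endothelial markers were higher in castration against the mean, none with a limma p under 0.05 with all arrays and 3 of them without that pair. Of the Schwann cell markers 4 of 6 were measured, of which 2 were higher.

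The genes whose profile over the 9 arrays was nearest to that of Myog, by the root mean square difference of centred values, were Dbp (0.179), Per1 (0.238), Acss1 (0.243), Slc7a2 (0.283) and Mcf2l (0.294), where the same measure of Myog against its own mean is 0.561. They were picked for closeness to Myog on these same arrays, so a higher castration mean was built into the choice. Their differences are therefore no separate support for that of Myog. Dbp, a clock-controlled transcription factor gene, read 7.72, 7.90 and 7.93 in sham, 8.97, 9.08 and 8.85 in castration, and 7.91, 8.26 and 7.83 in testosterone. Its castration arrays were above all others. Dbp was called in castration against the mean, at 1.04 (limma adjusted p = 0.0244), as was Slc7a2, a transporter of cationic amino acids, at 1.04 (limma adjusted p = 0.0321). No gene was called in that comparison with the replicate number as a block, after median centring, in an analysis of variance without moderation, or when any 1 castration array, the third sham array, the first testosterone array or the third testosterone array was left out, so these calls were lost there. In castration against the mean with all arrays, Per1, a period gene of the clock, gave 0.82 (limma adjusted p = 0.951), Acss1 0.67 (0.300) and Mcf2l 0.68 (0.921). Probe sets with the direction of the one used numbered 2 of 2 for Dbp, 3 of 4 for Slc7a2 and 2 of 3 for Acss1. The castration arrays of Per1 and Mcf2l were above all sham arrays but overlapped the testosterone arrays. Per1 read 4.63 on the third castration array and 4.95 on the second testosterone array, and Mcf2l read 5.06 and 5.14.

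**Figure D5:**
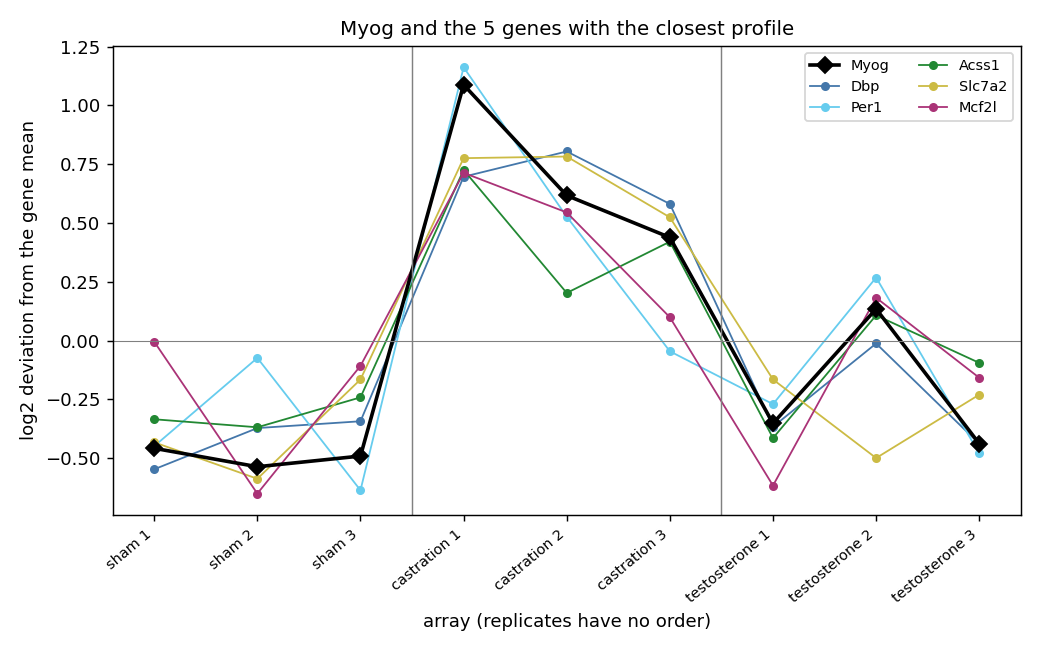
Log2 signal of Myog, Dbp, Per1, Acss1, Slc7a2 and Mcf2l on each array, each centred on its own mean over the 9 arrays, in group order. Dbp lies nearest to Myog, at a root mean square difference of 0.179. The group mean of each gene is highest in castration. On the third castration array, however, Per1 and Mcf2l lie below the second testosterone array, and Per1 lies below its own mean.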

How the data were processed

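Affymetrix arrays of gastrocnemius RNA were read from the deposited table of log2 signals, made by RMA per the submitters' processing notes (version not given in the sources used here). Each of the 9 columns was matched to a sample by its label. Of 45101 probe sets 64 were controls. Of the others 34945 were listed to 1 gene, 932 to several and the rest to none. Symbols were updated through RefSeq (GRCm38.p6), and 204 probe sets listed to 1 gene had no RefSeq match and kept the symbol of the array annotation. Where a gene had several probe sets that named no other gene, the one with the highest mean signal stood for it, giving 18193 genes. limma 3.58.1 in R 4.3.3 fitted all 9 arrays by group, with Benjamini-Hochberg adjustment over all genes and a threshold of 0.05; the script was tested on simulated data. No 2 arrays shared over 5.78% identical values. The members, lists and alternatives were chosen with earlier results of these data known. Genes are named if they are members, in the fixed set, or among up to 4 of a list with the smallest p under 0.05 in castration against the mean of sham and testosterone. Of 190 list genes 180 were measured, and 18 of 19 in the fixed set; the rest were not analysed here. The precision is limited by 3 arrays per group. Alternatives varied the normalization, filter, probe set rule, variance model and arrays.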

Additional observations from a re-analysis of the deposited data

How the results depend on the processing

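There are 3 pools per group, and Myf5 and Pax7 read below the array medians, which limits what these probe sets can show. Deviations of same-numbered arrays from their group means correlated from -0.489 to 0.268, with 5 of 9 pairs over 0.1. Those of arrays with different numbers correlated from -0.340 to 0.537. Deviations from means of 3 arrays are tied to one another, so these values cannot decide whether replicate numbers pair the arrays. With the replicate number as a block, 0 genes were called in each pairwise comparison and 0, against 10 without it, in castration against the mean of the others. The cause of the changes below was not tested.

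Castration against sham called 0 genes with all arrays (859 at an unadjusted p under 0.05), 2 with the mean of probe sets, 5 after renewed quantile normalisation, 2 with an intensity trend, 174 with array weights, 18 without the second sham and second testosterone arrays, and 0 to 7 with 1 array left out. Testosterone against castration called 0 (633 at an unadjusted p under 0.05), 12 with only the 2 groups compared, 2 with the mean of probe sets, 9 without dim genes, 22 after quantile normalisation, 12 with a trend, 59 with array weights, 27 without the pair and 0 to 28 with 1 array left out. Testosterone against sham called 0 (791 at an unadjusted p under 0.05), and 0 to 1 with 1 array left out. Castration against the mean called 10, with 5 for the mean of probe sets, 19 without dim genes, 33 after quantile normalisation, 0 after median centring, 16 with a trend, 0 in an analysis of variance without moderation, 135 with array weights, 51 without the pair and 0 to 35 with 1 array left out. The F test called 0, with 2, 11, 7 and 99 for the mean of probe sets, quantile normalisation, trend and array weights, 25 without the pair and 0 to 12 with 1 array left out. The member probe sets gave 0 calls, 1 with array weights and 0 to 0 with 1 array left out.

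For single genes, 718 values kept their direction and side of the threshold. Myog passed in 4 of its alternatives: array weights in castration against sham (adjusted p = 0.00808), testosterone against castration (0.0465) and castration against the mean (0.00669), and the set without the pair in the last (0.0366). Directions turned in 53 values. Castration against sham was, for Myod1, -0.073 after quantile normalisation, -0.37 with array weights and -0.26 without the pair, and for Mef2a -0.050 and -0.026 with the latter choices. Testosterone against castration was 0.052 and 0.10 for Myod1, 0.025 and 0.25 for Myf6 and 0.0093 and 0.082 for Mef2c with array weights and without the pair, and 0.054 for Mef2a without the pair. Castration against the mean was -0.21 and -0.18 for Myod1 and -0.23 and -0.31 for Myf6 with those choices, -0.040 for Mef2a and -0.020 for Mef2c without the pair, and -0.045 for Cdh15 after quantile normalisation. Testosterone against sham was 0.022 for Myf5 after median centring and 0.0094 for Pax7 without the pair. It was 0.25 for Mef2a with the mean of probe sets and 0.028 without the pair, and for Mef2c 0.042 with the mean of probe sets, 0.024 after median centring, 0.019 with array weights and 0.12 without the pair.

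With 1 array left out, castration against sham ran from -0.26 to 0.24 for Myod1, -0.36 to 0.13 for Myf6, -0.020 to 0.089 for Pax7 and -0.026 to 0.28 for Mef2a. Testosterone against castration ran from -0.28 to 0.10 for Myod1, -0.48 to 0.25 for Myf6, -0.48 to 0.054 for Mef2a and -0.21 to 0.082 for Mef2c. Testosterone against sham ran from -0.40 to 0.14 for Myod1, -0.056 to 0.037 for Myf5, -0.59 to 0.16 for Myf6, -0.095 to 0.012 for Pax7, -0.32 to 0.22 for Mef2a and -0.14 to 0.16 for Mef2c. Castration against the mean ran from -0.060 to 0.22 for Myod1, -0.17 to 0.20 for Myf6, -0.0044 to 0.14 for Mef2c and -0.018 to 0.063 for Cdh15.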
